A study of Mus musculus with 8 samples.

Results

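The 10 genes described here are induced by interferons and are grouped here as antiviral effectors: Ifit1, Ifit3, Isg15, Mx1, Mx2, Rsad2, Cmpk2, Oas3, Oasl1 and Oasl2. They were taken by name from the rows of 2 deposited tables of gene expression in mouse CD8+ T cells, and all 10 were found in both tables, among 49490 genes listed in one and 55291 in the other. The cells came from spleens and lymph nodes, and polyA RNA was sequenced in 2 experiments with 2 libraries per group. In the first experiment, cells activated in vitro either kept Trim28 on floxed alleles (Trim28fl/fl, genotype labelled WT, called control here) or lacked it (Trim28-/-, called knockout). In the second, cells labelled WT were cultured for 3 days with anti-CD3 and anti-CD28, either without further antibody (untreated) or with anti-IL-2 (blocked). All cells of the second experiment thus received the CD3 and CD28 antibodies, while the stimulus and time of the first, the Cre used to delete Trim28, and the strain, age and sex of the mice were not given in the sources used here. The labels do not say whether the 2 libraries of a group came from separate mice or cultures, so a p-value here reflects the scatter of 2 libraries per group, which could be purely technical.

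Interferons bind receptors at the cell surface and activate the kinases JAK1 and TYK2. These switch on a transcription factor complex that holds STAT2 and IRF9 and binds a short promoter element, the interferon-stimulated response element, in front of a large set of genes, of which the antiviral effectors are among the best known. TRIM28 (also KAP1) is a chromatin-bound protein best known for silencing through zinc finger factors, and IL-2 is the growth factor that activated CD8+ T cells make and respond to.

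The promoters are shown because that shared element is what the genes are known to have in common. RefSeq promoters of GRCm38.p6, each running from 250 bases before the annotated start to 50 after it, were at hand for 8 of the 10 genes. The core of the element, a pair of TTTC blocks with any 2 bases between them, was searched on both strands, overlapping matches included. It was found in 5 of the 8, namely Ifit1, Ifit3, Isg15, Rsad2 and Oas3, and in 3.44% of all 32851 promoters of that length. The stretches that hold it are given below 5′ to 3′ along the gene, with 20 bases on each side and the matched bases in capitals. On GRCm38 they lie at chr19:34640765-34640833 (Ifit1), chr19:34583353-34583436 (Ifit3), chr4:156200855-156200916 (Isg15, minus strand), chr12:26456543-26456592 (Rsad2, minus strand) and chr5:120777705-120777754 (Oas3, minus strand), upstream of the start and outside annotated exons.
Ifit1: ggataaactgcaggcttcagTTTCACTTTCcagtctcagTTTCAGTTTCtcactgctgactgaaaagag
Ifit3: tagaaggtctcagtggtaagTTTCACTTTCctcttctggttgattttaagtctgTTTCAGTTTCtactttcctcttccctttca
Isg15: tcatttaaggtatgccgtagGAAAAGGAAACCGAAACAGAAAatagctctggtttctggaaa
Rsad2: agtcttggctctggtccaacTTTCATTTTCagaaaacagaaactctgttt
Oas3: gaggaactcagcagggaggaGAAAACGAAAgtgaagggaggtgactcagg

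Ifit1 and Ifit3 each held 2 copies read along the gene, and Isg15 held 3 overlapping copies on the other strand within 1 run. The matches began between 156 and 66 bases before the start. Cmpk2, Oasl1 and Oasl2 had no match, which says only that these letters are not in these windows. A second motif, TTCNNNGAA, the core of the sites that STAT dimers bind, was in none of the 8 windows and in 8.3% of all promoters. At that share, 8 windows are too few to show that the genes lack such sites. Ifit1 and Oas3, which both held the first motif, were the genes of the 10 that rose most and fell most under IL-2 blockade.

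**Figure D1:**
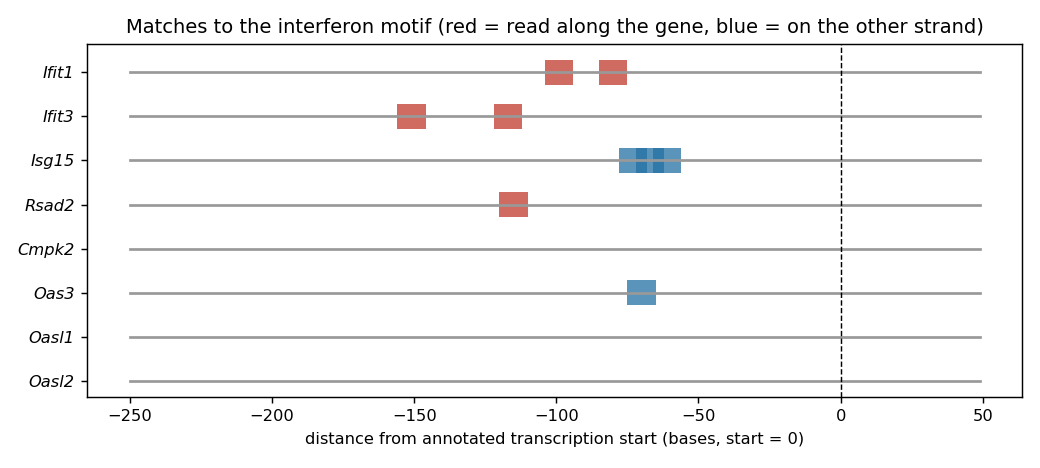
Position of each match to the paired TTTC motif (coloured boxes) in the 8 promoters at hand, plotted as distance in bases from the annotated start (dashed line). Red boxes read along the gene and blue boxes lie on the other strand; matches sit between 156 and 57 bases before the start in 5 genes, and Cmpk2, Oasl1 and Oasl2 have none.

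Each library held 13222831 to 17069569 reads over all genes. Values below are normalised read counts, that is, gene reads divided by a size factor that the authors fitted within each experiment, unless another scale is named. The removed gene was checked first: Trim28 stood at 4262 and 4323 in the control libraries and at 415 and 458 in the knockout libraries. All 7 CD8 T cell markers were detected in every group, with summed levels of 1923 to 2555 CPM (reads per 1000000), but most were called changed in each comparison. Markers of other cells were at lower summed levels, and some of them moved with the groups, as given beside each comparison. Since these are bulk samples, fewer cells that express a gene and less RNA of it per cell cannot be told apart.

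The 10 antiviral effector genes together took 63.2 and 64.7 CPM in the control libraries and 19.4 and 17.7 CPM in the knockout. In the second experiment they took 113 and 112 CPM without the IL-2 antibody and 72.5 and 68.6 CPM with it. Levels of different genes were compared as RPKM (reads per kilobase of annotated exon per 1000000 reads). Isg15, which encodes a small ubiquitin-like protein that is attached to other proteins, was highest in all 4 groups, at 12.7 ± 0.968 RPKM in control and 18.6 ± 1.83 in untreated cells (SD, n = 2). Oas3, which encodes an oligoadenylate synthetase that double-stranded RNA switches on, came next in those groups, at 4.71 ± 0.091 and 6.83 ± 0.0319 RPKM. In control cells the rest ran from Cmpk2 at 1.24 RPKM down through Mx1, Ifit1, Mx2, Rsad2, Oasl1 and Oasl2 to Ifit3 at 0.216. Of neighbours in that order, the libraries of Rsad2 and Oasl1 overlapped.

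The order changed in the other groups. In untreated cells Ifit1 (5.08 RPKM) and Oasl1 (3.35 RPKM) stood just below Oas3, and at the low end Rsad2 (1.08), Oasl2 (1.06) and Mx2 (0.923) overlapped in turn. In blocked cells Ifit1 (8.63 RPKM) and Oasl1 (4.50 RPKM) stood above Oas3 (1.08), while Rsad2, Mx2, Mx1 and Ifit3, between 0.548 and 0.521 RPKM, overlapped, and Oasl2 was lowest at 0.207. In the knockout Isg15 (3.40 RPKM), Oas3 (1.61) and Cmpk2 (0.367) stood apart, and Ifit1, Mx1, Oasl2, Oasl1, Ifit3 and Rsad2 each overlapped with the next. The control and untreated cells differed in level for Ifit1, at 2.3 ± 0.378 against 13.5 ± 1.13 CPM, and for Oasl1, at 1.36 ± 0.00227 against 8.75 ± 0.624 CPM. These 2 groups come from separate experiments and tables, and that difference was not tested.

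**Figure D2:**
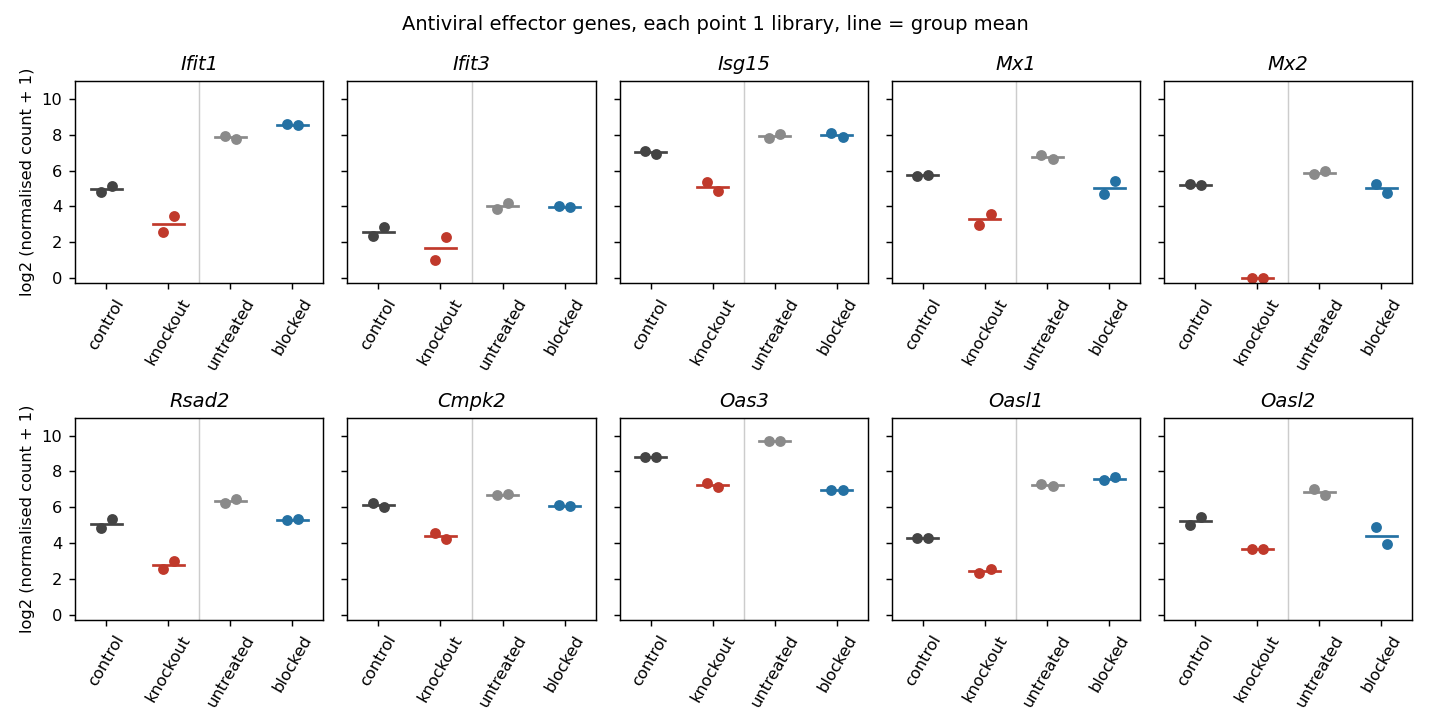
Level of each gene in every library, as log2 (normalised count + 1), with 2 points per group and a line at the group mean; control and knockout were scaled apart from untreated and blocked. Knockout points lie below control points in every panel, Mx2 at 0, while blocked points lie above untreated points for Ifit1 and Oasl1 and below them for Mx1, Mx2, Rsad2, Cmpk2, Oas3 and Oasl2.

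The comparison of knockout with control asks which genes depend on TRIM28 in activated cells. Antiviral effector genes were lower in the knockout: all 10 had both knockout values below both control values. Among the 15415 genes tested, 82.3% had groups that did not overlap, 38.9% with the knockout lower. Ifit3 was separated only after scaling, since it had 4 and 6 reads in control and 1 and 4 in the knockout. The level set for testing was a normalised count of 10 in at least 2 libraries, and 9 of the 10 genes reached it. Each of the 9 was called lower and none higher (limma on log2 (value + 1), adjusted p under 0.05), while of all genes tested 61.0% were called, 28.2% as lower and 32.9% as higher. Ifit1, Mx2, Rsad2 and Oasl1 reached that level only through the control libraries and so had to differ, whereas Isg15, Cmpk2, Oas3 and Oasl2 reached it in all 4 libraries and Mx1 in 3. The median log2 fold change over the 9 was -1.92, beside 0.031 over all genes tested, but it includes the genes that had to differ. Isg15, Cmpk2, Oas3, Oasl2 and Mx1 ran from -2.48 (Mx1) to -1.56 (Oasl2).

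Oas3, the gene with most reads of the 10 (chr5:120753098-120777661), had values of 441 and 452 in control and 159.5 and 141 in the knockout. The groups lay well apart, and the log2 fold change was -1.57 (SE 0.077, limma adjusted p = 3.39e-05), a 2.96-fold lower level. Isg15 (chr4:156199424-156200818) had 136 and 122 in control and 40.4 and 27.4 in the knockout, both knockout libraries under the lowest control. Its change was -1.92 (SE 0.194, limma adjusted p = 4.40e-04), or 3.78-fold.

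The MX genes encode dynamin-like GTPases that trap viral particles or genomes. Many inbred mouse strains carry defective copies, and the annotation lists Mx2 (chr16:97535308-97560900) as a polymorphic pseudogene. Mx2 had 36.5 and 35.5 in the control libraries and no reads in either knockout library. Against a floor of 3 reads in each knockout library, Mx2 was at least 12.2-fold lower. The fitted log2 fold change was -5.21 (limma adjusted p = 7.16e-05), but Mx2 is among the genes that had to differ. The fitted size for Mx2 depends on the pseudocount and ran from -8.19 to -3.04 over the alternatives. Its neighbour Mx1, 72.4 kb away (chr16:97447035-97462907), went from 51.7 and 53.7 to 6.89 and 10.8, with a log2 fold change of -2.48 (SE 0.239, limma adjusted p = 3.68e-04).

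Rsad2, which encodes viperin, an enzyme that makes a chain-terminating nucleotide, and Cmpk2, which encodes a mitochondrial nucleotide kinase, lie 12.8 kb apart on opposite strands of chromosome 12. Rsad2 (chr12:26442746-26456452) had 27.4 and 39.5 in control and 4.92 and 6.86 in the knockout. Cmpk2 (chr12:26469204-26479837) had 75.1 and 63.9 against 22.6 and 17.6. Both genes had every knockout library below every control library, with log2 fold changes of -2.31 (SE 0.280) and -1.74 (SE 0.178).

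The IFIT proteins bind viral RNA and block its translation. Ifit1 (chr19:34640871-34650009) had 27.4 and 34.5 in control and 4.92 and 9.80 in the knockout, a log2 fold change of -1.99 (SE 0.336, limma adjusted p = 0.00339). That call was lost when genes of any level were tested (adjusted p = 0.0509). Ifit3 (chr19:34583531-34588731) stood at 4.06 and 6.08 against 0.985 and 3.92 and was too low to test. Its counts are also uncertain because 51.2% of the 50-base words of its transcripts occur in Ifit3b, a near copy that held 1 to 3 reads per library in this experiment. For the other 9 genes that share was 7.13% or less.

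Oasl1 and Oasl2 encode OAS-like proteins that carry ubiquitin-like domains and are neighbours, 11005 bases apart on chromosome 5 (chr5:114923240-114937915 and chr5:114896936-114912234). Oasl1 had 18.3 and 18.2 in control and 3.94 and 4.90 in the knockout. Oasl2 had 31.4 and 42.6 in control and 11.8 in both knockout libraries. The log2 fold changes were -1.83 (SE 0.259) and -1.56 (SE 0.212), and with DESeq2 the call of Oasl1 was lost (adjusted p = 0.0587). The antisense gene Gm13822 overlaps the first 38 bases of Oasl1 and was listed at 0 in these 4 libraries.

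In the authors' deposited table, 8 of the 10 genes were lower in the knockout at an adjusted p under 0.05, as were 16.7% of the 16020 genes with an adjusted p there, while 21.9% were higher. Oasl1 was not past it in that table (adjusted p = 0.0905), and Ifit3 had no adjusted p. Heat shock genes moved with the knockout: the 8 listed as a quality check were all called lower, and summed to 4539 to 4608 CPM in control and 2790 to 2793 CPM in knockout libraries. Of these, Hspb1 reached the level for testing only through the control libraries and so had to differ. Mitochondrially encoded genes summed to 16059 to 16596 and 12330 to 12360 CPM.

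The 7 CD8 T cell markers summed to 1923 to 1964 CPM in control and 2092 to 2142 in the knockout. Of these, 4 were called higher and 2 lower, with log2 fold changes from -0.48 to 0.51. Markers of other cell types also differed between control and knockout libraries, most sums being higher in the knockout. The 9 B cell markers summed to 120 to 122 CPM in control and 168 to 170 in the knockout, mostly Ighm, and of 5 tested 2 were higher (Ighm and Ighd) and 2 lower (Cd79a and Cd79b). The 12 myeloid markers summed to 31.7 to 35.3 and 42.4 to 42.8 CPM, with 1 of 5 tested higher and 2 lower. The 7 plasmacytoid dendritic cell markers summed to 8.07 to 9.53 and 12.5 to 13.9 CPM, with 2 of 3 tested higher (Clec12a and Spib) and 1 lower (Tcf4), and Siglech at 0 in every library. The 7 NK and innate lymphocyte markers summed to 12.5 to 14.0 and 18.6 to 20.6 CPM, mostly Eomes, the 1 gene tested and called higher, with Ncr1 and Klra8 at 0. The 8 erythroid and stromal markers summed to 24.4 to 38.3 and 45.9 to 48.4 CPM, mostly Pecam1, with 1 of 3 tested higher. The 6 CD4 T cell markers summed to 55.1 to 55.6 and 50.3 to 53.2 CPM, with 3 of 5 tested higher and 2 lower. Of the called markers, Cd79a and Cd79b reached the level for testing only through control libraries. Clec12a and, of the CD4 list, Foxp3 reached it only through knockout libraries, so all of these had to differ. The part of these markers, and of the heat shock and mitochondrial genes, in the result was not tested.

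The comparison of blocked with untreated cells asks which genes depend on IL-2. Here the antiviral effector genes divided: Mx1, Mx2, Rsad2, Cmpk2, Oas3 and Oasl2 were lower with the antibody, Ifit1 and Oasl1 were higher, and Isg15 and Ifit3 did not pass. All 10 genes reached the level for testing, in all 4 libraries. Among the 13978 genes tested, 60.3% were called, 28.9% as lower and 31.4% as higher. The libraries of 8 of the 10 genes did not overlap, 6 lower and 2 higher, beside 79.3% of all genes tested, 38.2% lower and 41.1% higher. The median log2 fold change of the 10 was -0.73, beside 0.018 over all genes, and their values ran from -2.73 to 0.69.

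Oas3 fell most. It had 839 and 824 in untreated cells and 125 and 124 in blocked cells, with little spread in either group. The log2 fold change was -2.73 (SE 0.089, limma adjusted p = 4.24e-15), a 6.64-fold lower level, and Oas3 went from 42.8% and 43% of the reads of the 10 genes to 10.6% and 11%.

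Oasl2 had 129.9 and 103 in untreated cells and 28.6 and 14.4 in blocked cells. The 2 blocked libraries differed from each other, yet both were far below the untreated ones, with a log2 fold change of -2.45 (SE 0.258, limma adjusted p = 1.26e-07). Its neighbour Oasl1 went the other way, from 159 and 142 to 180.4 and 202. The log2 fold change of Oasl1 was 0.34 (SE 0.121, limma adjusted p = 0.0202), and the call was lost with DESeq2 (adjusted p = 0.177), when genes of any level were tested (0.0977), in a fit of all 8 libraries (0.132), without untreated replicate 2 (0.18) and without blocked replicate B (0.131). Reads of Oasl2 per read of Oasl1 were 0.817 and 0.725 in untreated cells and 0.159 and 0.0711 in blocked libraries. In the first experiment the same ratio was 1.72 and 2.33 in control and 3.00 and 2.40 in knockout libraries, with both genes lower.

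Ifit1 was the member that rose most. It had 247 and 217 in untreated cells and 382 and 366 in blocked cells, with no overlap. The log2 fold change was 0.69 (SE 0.098, limma adjusted p = 5.92e-06), or 1.61-fold, and it was called under every alternative tried. Ifit3 had 13.5 and 17.5 in untreated cells and 15.3 and 14.4 in blocked cells. The blocked values lay between the untreated ones, and the change was -0.051 (SE 0.338, limma adjusted p = 0.908).

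Mx1 had 116 and 101 in untreated cells and 24.8 and 41.2 in blocked cells, a log2 fold change of -1.73 (SE 0.219, limma adjusted p = 1.46e-06). Mx2 had 54.0 and 60.8 against 37.2 and 25.9, a change of -0.86 (SE 0.229, limma adjusted p = 0.00316). Both groups of both genes were apart, but the call of Mx2 was lost when genes of any level were tested (adjusted p = 0.0754).

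Rsad2 had 73.8 and 87.5 in untreated cells and 38.2 and 39.3 in blocked cells, a change of -1.03 (SE 0.191, limma adjusted p = 1.21e-04). Cmpk2, beside it, had 102 and 104 against 69.7 and 65.2, a change of -0.60 (SE 0.158, limma adjusted p = 0.00280). For both, every blocked library was below every untreated one. Isg15 had 227 and 257 in untreated cells and 278 and 230.2 in blocked cells, so the groups overlapped, and the change was 0.066 (SE 0.112, limma adjusted p = 0.637).

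The authors' deposited table had 4 of the 10 genes lower with blockade, Mx1, Rsad2, Oas3 and Oasl2, and Ifit1 higher, at an adjusted p under 0.05. Of the 16348 genes with an adjusted p there, 17.7% were lower and 19.5% higher. In that table Mx2 and Cmpk2 stood at an adjusted p of 0.106 and Oasl1 at 0.23.

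CD8 T cell markers summed to 2539 to 2555 CPM in untreated and 2275 to 2362 in blocked libraries. Of the 7, 5 were called lower and 1 higher, with log2 fold changes from -0.54 to 0.14. Markers of other cells moved with the blockade in both directions. B cell markers summed to 177 to 178 CPM in untreated and 286 to 305 in blocked libraries, mostly Ighm, with 2 of 4 tested higher and 1 lower. Plasmacytoid dendritic cell markers summed to 13.7 to 13.9 and 24.8 to 25.8 CPM, with 1 of 3 tested higher (Spib), 2 lower, and Siglech at 0. NK and innate lymphocyte markers went down, from 21.7 to 22.6 CPM to 10.4 to 10.5 CPM, mostly Eomes, with Ncr1 and Klra8 at 0. Erythroid and stromal markers went up, from 31.5 to 34.8 CPM to 67.6 to 70.5 CPM, mostly Pecam1, with 3 of 3 tested higher. Myeloid markers summed to 29.8 to 31.7 and 32.8 to 33.9 CPM, and CD4 T cell markers to 49.8 to 54.6 and 48.6 to 50.5 CPM. Heat shock genes summed to 2095 to 2129 and 1873 to 1902 CPM, with 5 of 7 tested lower and 1 higher. Of the marker and heat shock genes called lower, Cox6a2, Foxp3 and Hspa1a reached the level for testing only through untreated libraries. They therefore had to differ. The part of these markers and of the heat shock genes in the result was not tested.

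**Figure D3:**
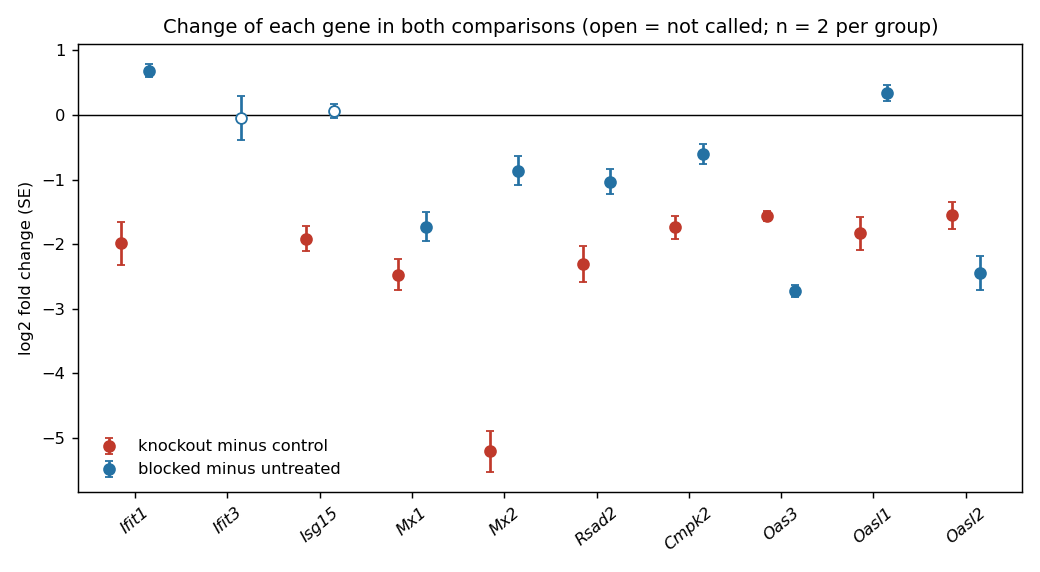
Log2 fold change of each gene with its standard error (n = 2 per group), red for knockout minus control and blue for blocked minus untreated; open points were not called and Ifit3 was not tested in the knockout. All red points lie at -1.56 or lower, while blue points run from -2.73 (Oas3) to 0.69 (Ifit1); the red point of Mx2 depends on the pseudocount, since its knockout libraries hold no reads.

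Whether the 2 effects differ was tested for each gene in a fit of all 8 libraries. A negative value means a lower log2 fold change in the knockout than with blockade. The 2 experiments share no library, so such a difference cannot be told apart from a difference between the experiments. Of the 15393 genes in that fit, 32.5% were called, 13.3% with a negative and 19.2% with a positive value. Negative values were called for Ifit1, Isg15, Mx2, Rsad2, Cmpk2 and Oasl1, and a positive one for Oas3. Ifit1 differed by -2.68 (SE 0.382, limma adjusted p = 0.00153), Oasl1 by -2.18 (SE 0.249, limma adjusted p = 5.01e-04) and Isg15 by -1.98 (SE 0.266, limma adjusted p = 0.00113). For Oas3 the difference was 1.16 (SE 0.104, limma adjusted p = 1.41e-04), so it fell more with blockade.

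The difference of Cmpk2 was -1.14 (SE 0.243, limma adjusted p = 0.00958) and that of Rsad2 was -1.28 (SE 0.352, limma adjusted p = 0.0268). The call of Rsad2 was lost with DESeq2 (adjusted p = 0.105), when genes of any level were tested (0.0608), without control replicate 2 (0.0909), without knockout replicate 1 (0.0888), without untreated replicate 1 (0.0765), and without blocked replicate A (0.054) or B (0.0541). Mx2 kept its call under the alternatives tried, but the size of its difference ran from -7.53 to -2.25 among them. Mx1 at -0.75 (SE 0.407, limma adjusted p = 0.205), Ifit3 at -0.89 (SE 0.620, limma adjusted p = 0.321) and Oasl2 at 0.89 (SE 0.458, limma adjusted p = 0.18) did not pass. Without blocked replicate A, Oasl2 reached 1.37 and passed (adjusted p = 0.0268), and without blocked replicate B it stood at 0.42.

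Other genes of the pathway were taken from lists fixed by name and not by how they moved. Interferon ligands come first: of 21 listed, Ifng alone was expressed enough to test, and it was lower in the knockout (log2 fold change -2.38) and with blockade (-5.38). The 20 type I and type III interferon genes summed to 10 and 19 reads in control, 5 and 8 in knockout, 16 and 25 in untreated cells and 19 and 15 in blocked libraries. Ifnb1, the gene of interferon beta, had 2 and 1 reads in control, none in the knockout, 2 and 7 in untreated cells and 5 in each blocked library.

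Of 10 genes for receptors and signal relay, 6 were lower and 4 higher in the knockout, with a median of -0.40, and with blockade 3 were lower and 2 higher, with a median of -0.018. For these and the following lists, the shares over all genes tested were 28.2% lower and 32.9% higher in the knockout and 28.9% lower and 31.4% higher with blockade, so the blockade counts of this list are near the background. Irf9 and Stat2, whose products belong to the complex that binds the promoter element, fell in both comparisons. Irf9 fell from 796 ± 11.1 to 407 ± 7.56 in the knockout (SD, n = 2, log2 fold change -0.97) and from 1400 ± 5.64 to 585 ± 3.51 with blockade (-1.26). Stat2 changed by -0.89 and -1.003. Ifngr2, a chain of the interferon gamma receptor, rose with blockade (2.48) but fell in the knockout (-0.74).

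Among 9 interferon regulatory factors, which switch on interferon and antiviral genes, 5 were lower and 4 higher in the knockout, and 5 lower and 2 higher with blockade. Irf7 was lower in both, at -1.26 and -2.56, and Irf1 was lower in the knockout (-0.88). Irf5 was higher in both, at 0.95 and 1.01. Of 9 nucleic acid sensors tested in the knockout, 5 were lower and 3 higher, and of 7 tested with blockade, 4 were lower and 2 higher. Ifih1, the gene of the RNA sensor MDA5, resembled Ifit1 in its 2 directions, going from 1252 ± 0.502 to 157 ± 13 in the knockout (log2 fold change -2.99) and from 2203 ± 77.1 to 2505 ± 98.8 with blockade (0.19, limma adjusted p = 0.00715). The difference of its 2 effects was -3.17 (limma adjusted p = 4.49e-07). Dhx58 (-1.26 and -2.06) and Zbp1 (-0.99 and -2.40) were lower in both. Mavs was higher in both (0.95 and 0.59), and Mb21d1 was higher in the knockout (1.03).

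The list of 34 other interferon-stimulated genes moved mostly down. Of 32 tested in each comparison, 28 were lower and 1 (Tor3a) was higher in the knockout, and 30 were lower with blockade. Ddx60 and Parp12 in the knockout reached the level for testing only through the control libraries, and so had to differ. The same held for Ifi44 and Ifi204 with blockade, through the untreated libraries. The medians were -0.99 and -1.08. Lower in both comparisons were Epsti1 (-2.16 and -1.77), Ifi27l2a (-1.43 and -1.62), Trim30a (-1.59 and -1.22), Parp14 (-1.13 and -0.84), Slfn1 (-1.93 in each) and Samhd1, which destroys nucleotides that viruses need (-0.59 and -1.27). Ddx60 had 26 and 29 reads in control and none in either knockout library.

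Closer relatives of the 10 genes did not all follow them. Ifit2, on chromosome 19 beside Ifit1 and Ifit3, had 42.6 and 44.6 in control and 79.8 and 75.5 in the knockout, and was called higher (log2 fold change 0.82, SE 0.111, limma adjusted p = 0.00141). With blockade it went from 109 and 146 to 209 and 155 and was also called higher (0.51, limma adjusted p = 0.00872). Oas1b and Oas1c were lower in the knockout (-1.33 and -1.16), and Oas1a went from 23.8 to 1.96. Ifit1bl1 went from 21.7 in untreated to 1.92 in blocked cells. Over the 14 relatives, 3 of 5 tested were lower and 1 higher in the knockout, and 3 of 6 tested were lower and 1 higher with blockade. Oas1a in both comparisons, and Ifit1bl1 with blockade, reached the level for testing only through the control or untreated libraries. These calls therefore had to be in that direction.

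Genes that attach ISG15 to proteins or remove it are a separate list of 5. In the knockout 3 were lower and 1 higher, with Herc6, the ligase, at -0.67 and Ube2l6, the conjugating enzyme, at -0.39. With blockade Ube2l6 (-1.98) and Usp18 (-2.47) were lower while Isg15 itself did not pass. Usp18, which removes ISG15 and dampens interferon signalling, stood at 35.0 ± 0.731 in control and 24.6 ± 6.87 in the knockout (SD, n = 2, log2 fold change -0.52, limma adjusted p = 0.0856), and its 2 effects differed by 1.95 (limma adjusted p = 0.00565). Among 6 feedback inhibitors 4 were lower and 1 higher in the knockout, and 5 lower and 1 higher with blockade, Socs3 having the lowest fold change of the list in each (-1.37 and -3.74). The 1 called higher was Ptpn6 in each (0.67 and 0.92). Of 13 interferon gamma-induced genes tested, 11 were lower and 1 higher in the knockout, and 9 lower and 2 higher with blockade. Among them Cxcl9 reached the level for testing only through the control or untreated libraries in each comparison, and so had to differ. The smallest adjusted p belonged to Gbp2 in the knockout (-2.47) and to Irgm1 with blockade (-2.60).

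**Figure D4:**
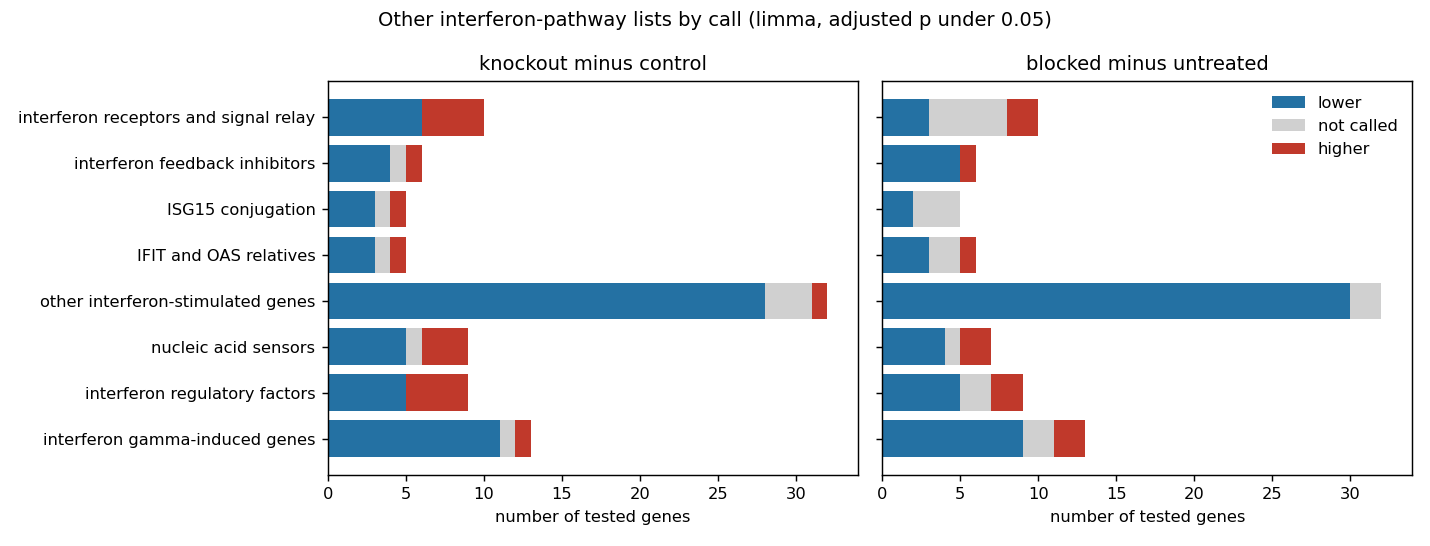
Number of tested genes called lower (blue), called higher (red) or not called (grey) in each pathway list, knockout minus control on the left and blocked minus untreated on the right. Other interferon-stimulated genes are nearly all lower on both sides (28 and 30 of 32), while receptors, sensors and regulatory factors hold both directions. Some genes called lower reached the level for testing only through the control or untreated libraries, as named in the text.

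**Figure D5:**
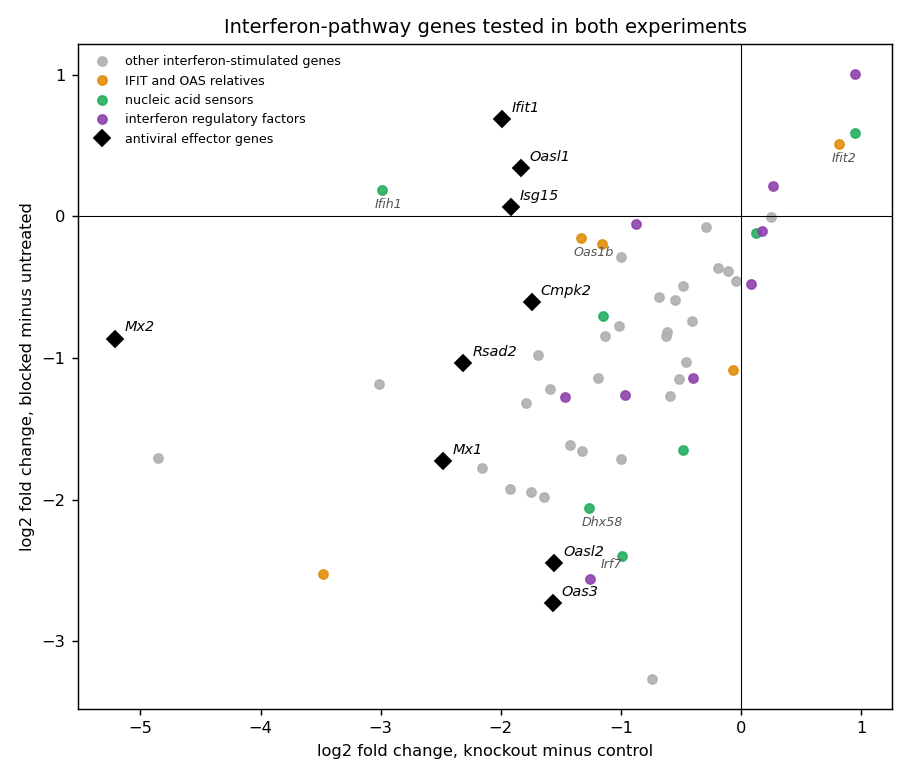
Log2 fold change in the knockout (horizontal axis) against that with IL-2 blockade (vertical axis) for the 9 antiviral effector genes tested in both (black diamonds) and for genes of 4 pathway lists (coloured points). Ifit1, Oasl1 and Isg15 lie left of and above 0 with Ifih1, whereas Oas3 and Oasl2 lie lowest among the 9, near Irf7.

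Genes were sought by the distance in log2 units of their pair of changes from the median pair of the 9 members tested in both. That median pair was -1.92 in the knockout and -0.86 with blockade, and it included the genes that had to differ in the knockout. The search covered 8287 genes with at least 10 CPM in a group of each experiment. In the first experiment Oas3 reached that level (33.3 CPM in control), but Isg15 (9.59 CPM) and the other members did not. With blockade the members ran from -2.73 to 0.69, so nearness to the median is not likeness to each of them. The nearest were Cth (-1.81 and -0.82), Trim30d (-1.69 and -0.98), Serpinf1 (-1.95 and -1.14) and Acp5 (-1.65 and -0.96). Il6ra, Samd9l, Utp14b and Rnf213 followed, and all 8 lay within 0.456 of the median pair.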

How the data were processed

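Each deposited value is a signal per gene and library: the authors divided read counts by a DESeq2 size factor, separately for the 2 experiments. The submitters' processing notes name StringTie 2.1.4, HISAT2 2.2.1, Trim Galore 0.4.4, DESeq2 and the build mm10. How reads were assigned to genes, with which annotation and strand setting, was not given in the sources used here. The authors also deposited log2 fold changes of reference over treated (sign turned here), a test score and p-values. Reads were recovered from the steps between low values, and 100% of values came out whole within 0.001.

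limma 3.58.1 (trend, R 4.3.3) was run on log2 (value + 1), a scale that understates the change of low genes, for genes with a value of 10 or more in 2 or more libraries, with Benjamini-Hochberg adjustment over all genes tested. The test was tried on simulated counts with a common dispersion for all genes and few changed genes. These data differ from that setting, so no result here rests on it. Alternatives were edgeR 4.0.16 and DESeq2 1.42.0 on recovered reads, other scalings, pseudocounts and filters, a replicate block, and each library left out. CPM and RPKM came from recovered reads, with exon lengths and positions from GENCODE M21 on GRCm38.

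Named were the 10 genes, Trim28, for each pathway list up to 4 called genes per comparison (lowest adjusted p first), and the 8 genes of nearest change. Ddx60, Tor3a, Usp18, Dhx58 and Irf5 in the knockout, Ifih1 with blockade, and the second values of Trim30a, Parp14, Slfn1 and Samhd1 were added after their values were seen. The members and lists were chosen with earlier results of these data known. Some genes of these lists are not reported here by name.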

Additional observations from a re-analysis of the deposited data

How the results depend on the processing

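Over the alternatives tried, no called change of the 10 genes turned its direction. In the knockout 128 of 130 values for single genes kept their side of the threshold, with blockade 133 of 139, and for the difference 161 of 169; the calls lost are named with their genes above. The mean filter, a mean count of at least 10 in place of 10 in 2 libraries, was chosen after seeing the data. With the strict filter, a count of 50 in 2 libraries, 4 of the 10 genes were left to test in the knockout and all 4 were called lower. Members called higher with blockade dropped from 2 to 1 with DESeq2, without a filter and with all 8 libraries in 1 fit, and ran from 1 to 2 with a library left out, 1 being the value without untreated replicate 2 or without blocked replicate B. For the difference, members with a positive call ran from 1 to 2 with a library left out, 2 without blocked replicate A. Over all genes, DESeq2 called 2846 higher and 2660 lower in the knockout, against 5065 and 4344, and 1907 higher for the difference, against 2954. With a library left out, knockout calls over all genes ran from 3212 to 4103 higher and 2787 to 3193 lower, with 3212 and 2787 without knockout replicate 1 and 3234 and 2824 without knockout replicate 2. The numbers 1 and 2 are not stated to pair control with knockout libraries, and their deviations correlated at 0.0127 across genes. With the replicate block 4881 genes were higher and 4197 lower, and 9 of the 10 genes were still called lower. No paired analysis was possible for blockade because the blocked columns carry no number. Depth limits the precision of the knockout values: 7 of the 10 genes had 12 reads or fewer in each knockout library.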
